A study of Homo sapiens with 36 samples.

Results

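The cytosolic ribosome holds a set of proteins, each encoded by its own gene, and 81 of the 62710 genes in the deposited tables carry a symbol of that family (RPL or RPS with a number and at most the letter A, X or L, or RPSA, RPLP0, RPLP1 or RPLP2). Of these, 49 encode proteins of the large subunit and 32 proteins of the small subunit, and 1393 features named as their pseudogenes were left out. The study followed H9, a human embryonic stem cell line, as doxycycline switched on NGN2, a transcription factor that turns stem cells into neurons (iNeurons). Lines were labelled WT, HET (1 mutant allele of RAI1, a chromatin regulator) or KO (both alleles mutant), and total RNA depleted of ribosomal RNA was sequenced on days 0, 3 and 7, giving 9 groups of 4 libraries. All groups, WT included, share the H9 background and the inducible NGN2. The number of clones behind each genotype is not given in the sources used here, so genotype and clone cannot be told apart.

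Ribosomal protein genes are transcribed at high rates in growing cells, and each assembled ribosome needs nearly all of their products in equal amounts. Their mRNAs are known as 5′ TOP mRNAs: they begin with a C followed by a run of pyrimidines, and this run lets mTOR signalling and the binding protein LARP1 control their translation and stability together. Neurons keep ribosomes in axons and dendrites as well as in the cell body, and differentiation of stem cells is generally accompanied by a fall in ribosome production.

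The first transcribed bases of 9 members are shown: 7 carry the sequence feature that most of the family shares, and RPS27L and RPS26 do not. Each line gives 10 bases before the RefSeq start site (GRCh38.p14) and the first 20 bases of exon 1, with capitals marking the unbroken run of C and T from a first base C.
RPS19: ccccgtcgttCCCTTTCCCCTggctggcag
RPS3: cgagccacttCCTTTCCTTTCagcggagcg
RPS6: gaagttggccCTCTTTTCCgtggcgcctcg
RPS27: cgctttcgctCCTTTCCggcggtgacgacc
RPL39: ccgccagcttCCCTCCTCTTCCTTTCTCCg
RPL41: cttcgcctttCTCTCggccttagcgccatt
RPSA: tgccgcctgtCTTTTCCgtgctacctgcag
RPS27L: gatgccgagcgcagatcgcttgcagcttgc
RPS26: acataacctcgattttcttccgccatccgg

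These windows lie at chr19:41860245-41860274 (plus strand) for RPS19, chr11:75399508-75399537 (plus) for RPS3 and chr9:19380217-19380246 (minus) for RPS6. Those of RPS27, RPL39 and RPL41 lie at chr1:153990752-153990781 (plus), chrX:119791611-119791640 (minus) and chr12:56116623-56116652 (plus). RPSA, RPS27L and RPS26 have theirs at chr3:39406710-39406739 (plus), chr15:63157458-63157487 (minus) and chr12:56041908-56041937 (plus). RefSeq windows matched 64 of the 81 members. A first base C followed by 4 or more bases of C or T, read on the sense strand only, was present in 46 of the 64 (71.9%), against 5.14% of the 27305 genes with a window. A gene was counted if any of its windows had the run. Per window the run was found in 46 of 79 for the members (58.2%), against 4.07% of the 35116 windows of all genes. RPS19 has 2 windows, and the window with the longer run is shown. The runs were 5 to 19 bases long with a median of 8. RPS27L and RPS26 lack the run at their RefSeq starts, and so do RPL3, RPL9, RPS4X and RPS7, among others. The match depends on the annotated first base, and a start site placed 1 base away could lose it. Among the other lists the run was found in 11 of 25 translation factors (44%), 4 of 13 hosts of small nucleolar RNAs (30.8%) and 6 of 69 mitochondrial ribosomal proteins (8.7%).

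Library totals were 23.9 M to 56.7 M counts. Day 0 libraries carry the iNeuron label too, but their summed level of 10 pluripotency markers was 4779 to 7901 CPM (counts scaled to the library total) against 255 to 994 on days 3 and 7. That of 12 neuronal markers was 314 to 900 CPM at day 0 and 6796 to 23491 CPM at day 7. RAI1 itself, the edited gene, had mean levels at day 7 of 48.4 ± 14.1 CPM (WT), 70.4 ± 19.2 CPM (HET) and 78.4 ± 11.9 CPM (KO, each SD over n = 4). Its level was not lower in the mutant libraries, so gene counts give no check on the labels, and HET and KO below mean libraries so labelled. Counts of 5 small structural RNAs (RMRP, RPPH1, RN7SK, RN7SL1 and RN7SL2) varied between replicates and stood apart in some libraries. They took 27.5% of HET day 7 replicate 1 against 2.84% to 13.4% of the other 3, and 14.9% and 18.8% of KO day 3 replicates 3 and 4 against 4.92% and 3.54% of replicates 1 and 2. Because these RNAs are short they took 47.9% to 86.5% of all TPM, a unit that divides counts by transcript length and scales each library to the same sum, so changes in summed TPM are set beside those in counts.

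Of the 81 members, 79 were above 3 counts in every library. RPL10L, a retrogene copy of RPL10 known from testis, had 0 counts in all 36 libraries, and RPL3L, the heart and skeletal muscle copy of RPL3, had a median TPM of 0.03. Neither passed the filter on low counts, so each comparison tested 79. On the TPM scale the medians over 36 libraries ran from 18 for RPL39L to 1414 for RPL41, a 78.4-fold range. RPL41, which encodes the smallest ribosomal protein, was followed by RPS23 (1168 TPM), a protein of the decoding centre, and RPL35 (1101 TPM), a protein near the exit of the peptide tunnel. At the low end above RPL39L stood RPS27L, a copy of RPS27 known as a p53 target, at 34.7 TPM, and RPS26, which contacts mRNA at the exit channel, at 55.8 TPM. The 81 genes mapped to protein-coding genes on 21 chromosomes in GENCODE 29, 47 of them overlap another annotated gene other than a small nucleolar RNA, and 77 have at least 1 named pseudogene in the tables. How reads were divided among such copies depends on the estimated counts. Pseudogene features together took 0.0381% to 0.124% of a library.

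At day 0 the ribosomal protein genes took a like share of counts in the 3 genotypes. The share was 3.36%, 3.43%, 3.26% and 3.48% in the 4 WT libraries, 2.86%, 3.18%, 2.92% and 3.5% in HET, and 3.41%, 3.22%, 3.04% and 3.33% in KO, and the groups overlapped. In edgeR's quasi-likelihood test none of the 79 members passed an adjusted p of 0.05 between KO and WT, where 2.08% of all genes tested did, and 1 had an unadjusted p under 0.05. The median log2 fold change was -0.03 over the members and 0.01 over all genes. Between HET and WT none passed either, where 1.63% of all genes did, although 14 had an unadjusted p under 0.05 and the members' median was -0.11. DESeq2 called 0 members in KO and 1 in HET, and limma on log2(TPM + 1) called 0 in each. Without HET replicate 4, the HET library with the highest share, edgeR called 4 members lower in HET. The share of all genes called without it is not reported here, and the 1.63% belongs to the fit that holds it.

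RPS27L was the member with the largest difference at day 0. It stood at 19.3, 28.4, 16.6 and 18.9 CPM in WT, 23.6, 59.3, 23.8 and 22.2 CPM in HET, and 21.5, 55, 23.5 and 24.4 CPM in KO. Replicate 2 was the highest library of each genotype. The difference between KO and WT was 0.60 on the log2 scale (SE 0.37, adjusted p = 0.576). Libraries with the same replicate number deviated together in this comparison, and with the number as a block RPS27L was the only member called, at 0.52 (adjusted p = 0.0481 in edgeR).

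**Figure D1:**
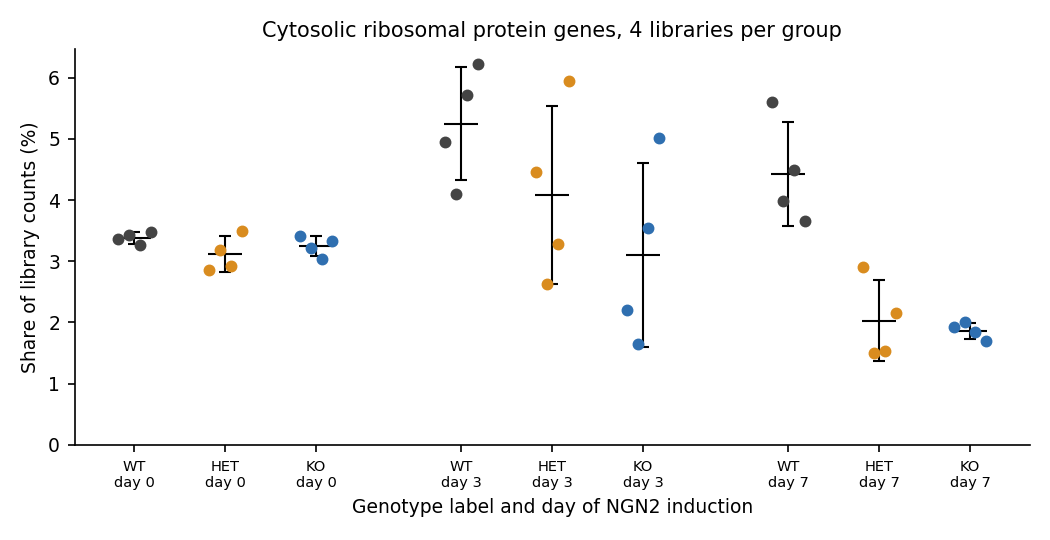
Share of library counts (%, vertical axis) taken by the 81 ribosomal protein genes in each of the 36 libraries (points), by genotype label and day of induction, with the mean and SD (n = 4). WT rises from 3.26% to 3.48% at day 0 to 4.1% to 6.22% at day 3 on this scale, a direction that turns on the TPM scale, while at day 7 the 4 KO libraries (1.69% to 2%) and the 4 HET libraries (1.5% to 2.91%) all lie below the 4 WT libraries (3.66% to 5.6%).

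The WT time course shows how the family moved during induction in cells with no RAI1 mutation. The share of counts was 4.95%, 4.1%, 5.72% and 6.22% in the WT libraries of day 3, all above day 0. In the count test 55 of 79 members rose from day 0 to day 3 and 1 fell, against 31.2% and 28.7% of all genes tested, and the members' median log2 fold change was 0.65 against 0.07 for all genes, but the direction turned on the TPM scale, where 6 rose and 33 fell with a median of -0.35 against an all-gene median of -0.38. With the 5 small structural RNAs taken out of TPM, 34 rose and 3 fell, and with transcript length as an offset in the count test 30 rose and 4 fell, with a median of 0.15. The small structural RNAs took 4.51% to 6.42% of WT counts at day 0 and 8.99% to 19.6% at day 3, and their part in this result was not tested beyond these fits.

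The rise was uneven across the family. RPS27L moved most, from 19.3, 28.4, 16.6 and 18.9 CPM at day 0 to 90.2, 70.7, 125 and 120 CPM at day 3. The groups were far apart, and the difference was 2.41 on the log2 scale (SE 0.35, adjusted p = 3.55e-05). It was positive on every scale tried, including TPM (1.34).
RPL31, a protein near the peptide exit, went from 179, 182, 183 and 212 CPM to 481, 334, 758 and 664 CPM, a log2 difference of 1.70 (SE 0.27, adjusted p = 9.42e-05). RPL39, a small protein lining the exit tunnel, went from 128, 155, 160 and 179 CPM to 407, 323, 574 and 525 CPM, a difference of 1.69 (SE 0.22, adjusted p = 1.63e-05). For both genes every day 3 library lay above every day 0 library, and replicates 3 and 4 were the highest at day 3.

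Other named members rose less. RPS27, the zinc-finger protein of which RPS27L is a copy, rose by 1.55 on the log2 scale. RPS19, a protein needed to mature the small subunit and mutated in Diamond-Blackfan anaemia, rose by 1.10, and RPL10, which joins the large subunit late in its assembly, by 1.02. In TPM the days overlapped for both genes. RPS19 stood at 1110, 1185, 1079 and 1002 TPM at day 0 and at 1545, 1178, 828 and 1088 TPM at day 3. RPL10 stood at 798, 772, 802 and 772 TPM at day 0 and at 956, 832, 687 and 736 TPM at day 3. RPL5, part of the 5S particle that binds MDM2, rose by 0.90, RPL3, next to the peptidyl transferase centre, by 0.76, and RPLP0, the base of the stalk that recruits elongation factors, by 0.69, but these last 3 were lower on the TPM scale (-0.18, -0.30 and -0.34).

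RPS26 went the other way. It stood at 115, 116, 103 and 108 CPM at day 0 and at 57.8, 44.9, 49.3 and 55.8 CPM at day 3, and every day 3 library lay below every day 0 library. It fell by 0.97 on the log2 scale (SE 0.14, adjusted p = 4.79e-05) and was the only member called lower. RPS6, the protein phosphorylated by S6 kinase downstream of mTOR, showed a difference of -0.12 (adjusted p = 0.402) and RPS4X, the X-linked copy of RPS4, one of 0.02 (adjusted p = 0.915). RPL11, the partner of RPL5 in the 5S particle, was at -0.25 (adjusted p = 0.3), and RPSA, the laminin receptor precursor, at 0.32 (adjusted p = 0.171).

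From day 3 to day 7 the WT share of counts was 5.6%, 3.98%, 4.49% and 3.66%, which overlapped day 3. Among the members 6 fell and 1 rose, against 22.9% and 23.3% of all genes, with a median of -0.16. RPS27A, which encodes a ubiquitin fused to a ribosomal protein, fell by 0.81 on the log2 scale from 309 ± 49 to 165 ± 35.1 CPM (SD, n = 4; adjusted p = 0.00238). RPL39L fell by 0.77, RPS2 by 0.62 and RPS6 by 0.38, and RPS4X rose by 0.47 (adjusted p = 0.011 in edgeR). The count of falls was 19 without WT day 7 replicate 1, the library with the highest share, and 16 without WT day 3 replicate 2, the lowest of day 3. The calls on RPL39L and RPS6 were lost without WT day 3 replicate 3 (adjusted p = 0.0513) and 4 (adjusted p = 0.0556). On the TPM scale 40 members fell, and with the share of small structural RNAs as a covariate 52 fell. The shares of all genes that fell on these scales or without these libraries are not reported here, and the 22.9% belongs to the main fit.

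**Figure D2:**
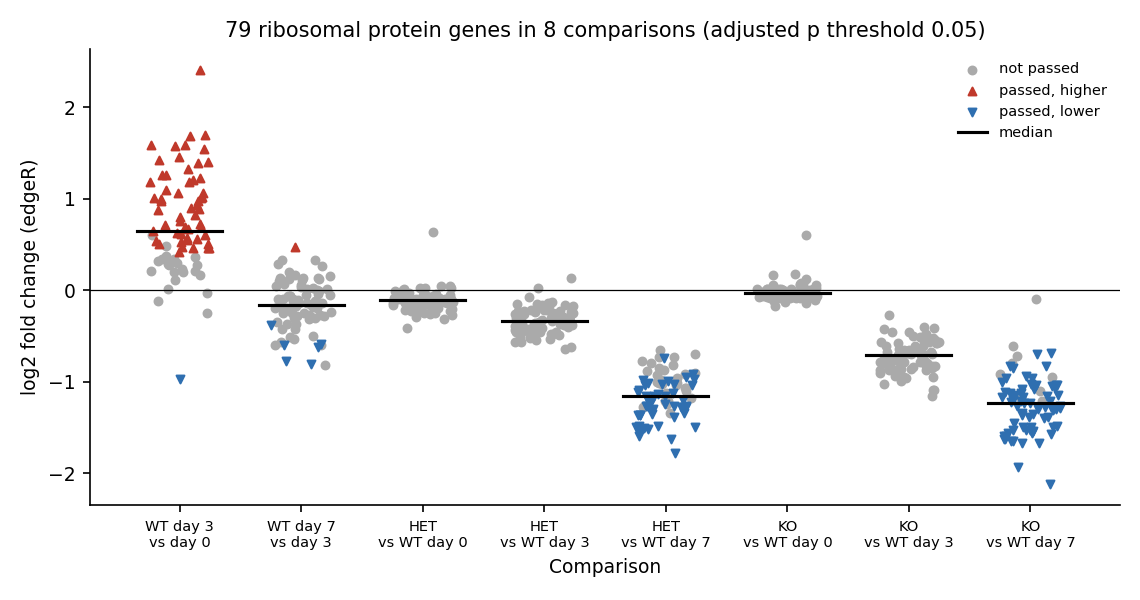
The log2 fold change in edgeR (vertical axis) of each of the 79 tested members (points) in 8 comparisons, with the median as a black line, where triangles mark members past an adjusted p of 0.05. The medians are 0.65 for WT day 3 against day 0 (-0.35 on the TPM scale) and -1.23 and -1.15 for KO and HET against WT at day 7.

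At day 7 the family was lower in KO than in WT almost without exception. The share of counts was 1.92%, 2%, 1.85% and 1.69% in the KO libraries against 5.6%, 3.98%, 4.49% and 3.66% in WT, a difference of -1.25 on the log2 scale. Of 79 members 70 fell and none rose, where 15.6% of all genes tested fell. All 79 estimates were negative, from -2.12 for RPS27L to -0.10 for RPS26. The median was -1.23, against -0.04 over all genes. In 78 members every KO library lay below every WT library, which held for 18.3% of all genes tested. Large-subunit members (42 of 47 fell, median -1.21) and small-subunit members (28 of 32 fell, median -1.37) both moved this way.

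Counts of calls at day 7 depended on the scale more than the direction did. DESeq2 called 72 members lower, the count test with length offsets 59, the small-RNA covariate 60, and limma on TPM without the small structural RNAs 66. On unadjusted TPM limma called 1, with a member median of -0.65 against an all-gene median of 0.18. The shares of all genes called in these fits are not reported here. At day 7 the small structural RNAs took 14.5% to 25.6% of counts in WT and 9.9% to 15.8% in KO. Their part in the KO difference was not tested beyond these fits. In bulk RNA fewer cells of a type and less RNA per cell cannot be told apart, and p-values here measure the spread between libraries that the labels call biological replicates.

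The largest fall was that of RPS27L, at 10.7, 13, 11.1 and 15.1 CPM in KO against 102, 38.3, 41 and 33.5 CPM in WT. The groups do not overlap, but WT replicate 1 lies far above the other 3 WT libraries. RPS27L fell by 2.12 on the log2 scale (SE 0.45, adjusted p = 0.00337), and by 1.61 without WT replicate 1 (adjusted p = 0.0097). RPS19 stood at 240, 269, 234 and 259 CPM in KO and at 1105, 847, 967 and 852 CPM in WT. The KO libraries lie within a narrow band below all WT libraries, and the fall was 1.93 (SE 0.41, adjusted p = 0.00331).
RPS3, which lines the mRNA entry channel, stood at 338, 369, 344 and 387 CPM in KO and at 973, 986, 1334 and 1218 CPM in WT, with no overlap. It fell by 1.67 (SE 0.30, adjusted p = 0.0013). RPS9, also at the mRNA entry channel, fell by 1.67 as well (SE 0.48, adjusted p = 0.0185).

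RPS6 gave the firmest call. Its levels were 157, 178, 158 and 144 CPM in KO and 393, 432, 397 and 387 CPM in WT, both tight, and it fell by 1.34 (SE 0.18, adjusted p = 0.000239). RPS4X, the member that had risen in WT from day 3, was at 492, 590, 538 and 427 CPM in KO against 1063, 1131, 1125 and 947 CPM in WT. It fell by 1.07 (SE 0.18, adjusted p = 0.000797).
RPLP0 fell by 1.54, RPS27 by 1.63, RPL39 by 1.48 and RPL3 by 1.26 on the same scale. RPL5 (-1.20) and RPL11 (-0.96), which share the 5S particle, both fell, as did RPL10 (-1.17) and RPSA (-1.03).

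The other 9 members did not pass. RPL39L (-1.21, adjusted p = 0.076), RPL36 (-1.18, adjusted p = 0.0798) and RPL35 (-1.10, adjusted p = 0.09) had estimates near the family's median but wider errors. RPS28, RPL28, RPS15, RPL38 and RPS29 ranged from -0.95 to -0.61. For these 8 genes every KO library still lay below every WT library. RPS26 was apart from the rest, at 36.2, 41.6, 35.4 and 36.5 CPM in KO and at 41.5, 35.3, 36.5 and 45.4 CPM in WT. Its groups overlap, with a difference of -0.10 (SE 0.24, adjusted p = 0.784).

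**Figure D3:**
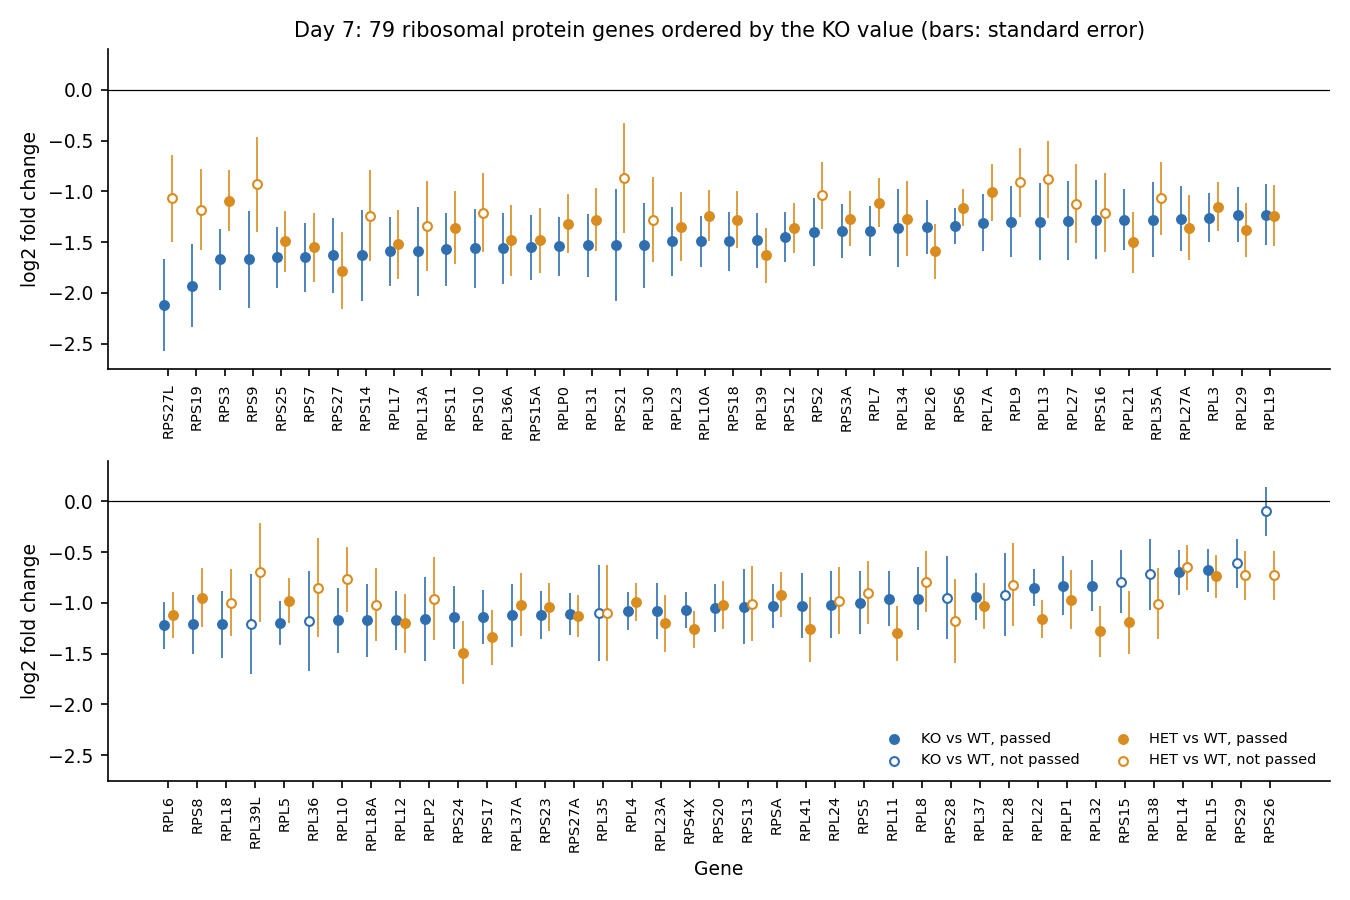
The log2 fold change against WT at day 7 (vertical axis) of the 79 members (horizontal axis, ordered by the KO value and continued in the lower panel), for KO (blue) and HET (orange), with the standard error; filled points passed an adjusted p of 0.05 in edgeR. Every point lies below 0, RPS27L (-2.12) and RPS26 (-0.10) are the ends of the KO order, and both sets of values rest on the same 4 WT libraries.

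In HET at day 7 the family was also lower than in the same 4 WT libraries. The share of counts was 2.91%, 1.5%, 1.54% and 2.15%, below the 4 WT values, and the difference was -1.13 on the log2 scale. Of 79 members 48 fell and none rose, where 6.1% of all genes tested fell. The median was -1.15, against 0.00 for all genes, and in 61 members the HET libraries all lay below the WT libraries, against 7.65% of all genes. Replicate 1, the library with the large small structural RNA share, was the highest of the 4, and without it all 79 members were called lower, with a median of -1.59. The share of all genes called lower without it is not reported here, and the 6.1% belongs to the fit that holds it. On unadjusted TPM limma called none, with a member median of -0.39 against an all-gene median of 0.46, and 66 on TPM without the small structural RNAs.

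The HET falls were led by RPS27, RPL39 and RPL26. RPS27 stood at 107, 50.1, 59.9 and 175 CPM in HET and at 472, 291, 339 and 230 CPM in WT, and fell by 1.78 (SE 0.38, adjusted p = 0.00791). RPL39 was at 140, 84, 101 and 186 CPM against 509, 324, 377 and 343 CPM, a fall of 1.63 (SE 0.27, adjusted p = 0.00239). Neither gene's groups overlap, and replicate 4 was the highest HET library for both.
RPL26, which sits beside the tunnel exit and is known to regulate p53 translation, was at 301, 285, 240 and 398 CPM against 1387, 806, 810 and 591 CPM. It fell by 1.59 (SE 0.27, adjusted p = 0.00268) with no overlap. RPS6 fell by 1.16, RPS4X by 1.26, RPL3 by 1.15, RPLP0 by 1.32, RPL5 by 0.98 and RPSA by 0.92, and RPL11 was 2.45-fold lower. The call on RPSA was lost without HET replicate 2 (adjusted p = 0.0542 in edgeR) or 3 (adjusted p = 0.0521).

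Some named members did not pass in HET. RPS19 was at 758, 224, 218 and 419 CPM in HET, with replicate 1 near the WT range, a difference of -1.18 (SE 0.40, adjusted p = 0.0647). RPS27L was at 40.7, 17, 13.1 and 30.2 CPM, which overlaps WT, a difference of -1.07 (adjusted p = 0.118). RPS26 differed by -0.73 (adjusted p = 0.0583) and RPL10 by -0.77 (adjusted p = 0.13). Compared directly, KO and HET differed at day 7 in none of the 79 members in edgeR, where 1.4% of all genes were called, with 2 at an unadjusted p under 0.05 and a median of -0.10. RPS27L (-1.06, adjusted p = 0.308) and RPS26 (0.64, adjusted p = 0.259) were the ends of that order. DESeq2 and limma on log2(TPM + 1) called none of the members in this comparison.

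**Figure D4:**
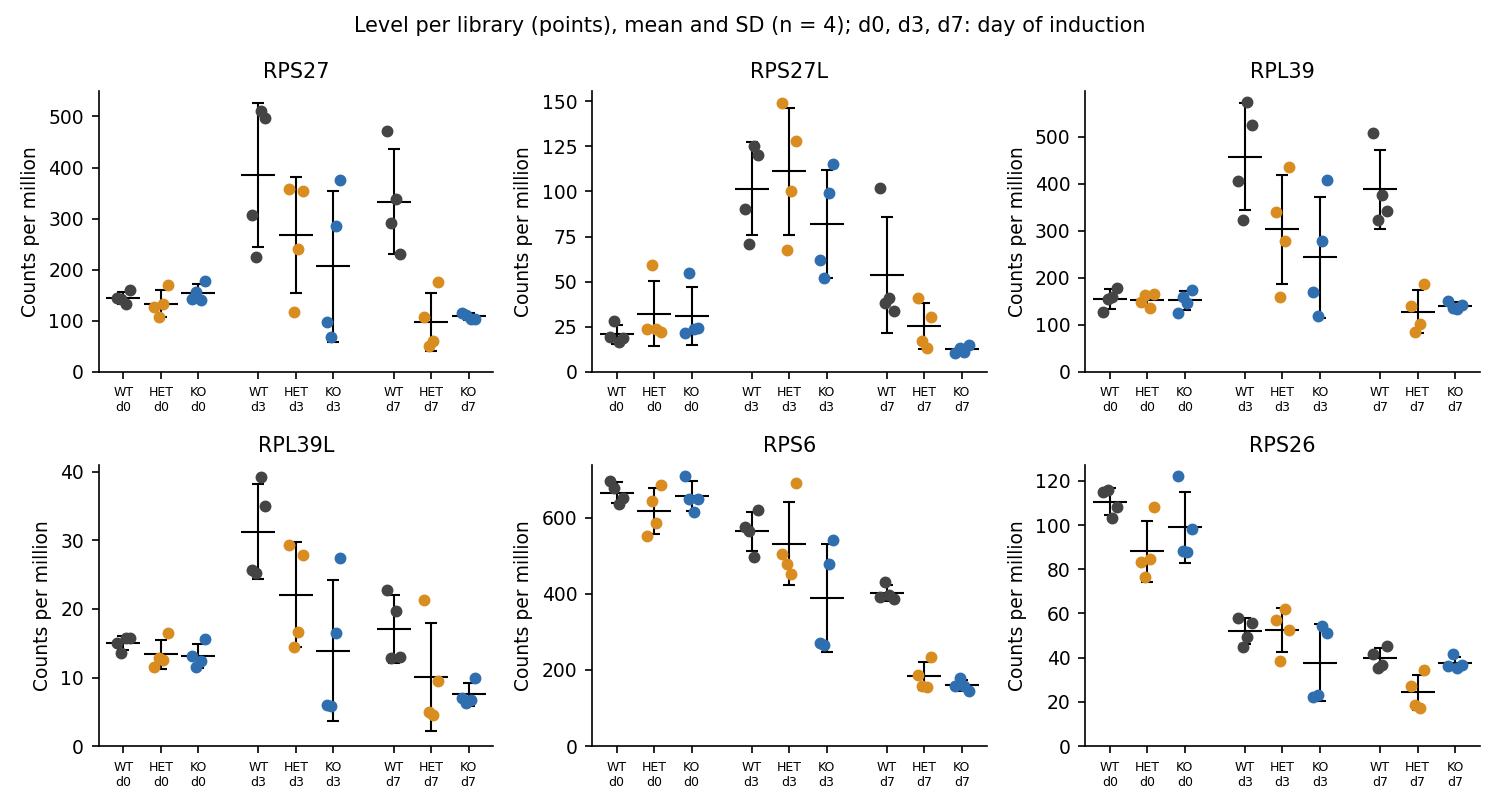
CPM (vertical axes) of RPS27, RPS27L, RPL39, RPL39L, RPS6 and RPS26 in each library (points) by genotype label and day, with the mean and SD (n = 4). RPS6 at day 7 lies at 387 to 432 CPM in WT and 144 to 178 CPM in KO, whereas RPS26 lies at 35.3 to 45.4 CPM in WT and 35.4 to 41.6 CPM in KO.

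At day 3 the family's values in KO were lower than in WT on average, with a wide spread between replicates. The share of counts was 2.21%, 1.65%, 3.55% and 5.02% in KO against 4.95%, 4.1%, 5.72% and 6.22% in WT, and the groups overlapped. The small structural RNA share in the same KO libraries was 4.92%, 3.54%, 14.9% and 18.8%, so the libraries with more of it had more ribosomal protein counts, and with that share as a covariate 34 members were called lower, with a median of -0.54. All 79 estimates were negative with a median of -0.71, against -0.05 for all genes, but none passed in edgeR, where 21.6% of all genes were called. At an unadjusted p under 0.05 there were 9, DESeq2 called 2 and limma on log2(TPM + 1) 0. With the replicate number as a block most members were called lower, a count given with the processing settings below. The labels state no pairing. Same-numbered KO and WT libraries correlated in their deviations at 0.152, 0.387, 0.0736 and 0.473, and replicate 3 missed the bar of 0.1. Without KO replicate 4 the test with no block called 33 members lower, with a median of -1.10. The shares of all genes called with the covariate, with the block or without this library are not reported here.

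RPS27A came nearest to a call in KO at day 3. It was at 113, 110, 196 and 233 CPM in KO against 273, 261, 338 and 362 CPM in WT, with no overlap, and differed by -0.87 (SE 0.32, adjusted p = 0.0645). RPS6 was at 272, 266, 479 and 541 CPM against 575, 565, 497 and 621 CPM, where only replicate 4 of KO reaches the WT range (adjusted p = 0.264). RPS27L differed by -0.27 (adjusted p = 0.613), the smallest difference of the family.

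In HET at day 3 the share was 4.46%, 2.63%, 3.29% and 5.95%, with a median log2 fold change against WT of -0.34. None of the 79 passed, where 3.28% of all genes did, and none had an unadjusted p under 0.05 in edgeR. DESeq2 and limma on log2(TPM + 1) called none. Same-numbered libraries deviated together here too, and with the replicate number as a block RPS29 alone was called, at -0.60 (adjusted p = 0.0411 in edgeR). Between KO and HET no member passed at day 3 (4.35% of all genes, median -0.39, none at an unadjusted p under 0.05) or at day 0 (0.856% of all genes, median 0.07, 10 at an unadjusted p under 0.05). DESeq2 and limma on log2(TPM + 1) called none of them either.

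Whether KO and WT changed differently over time was tested with an interaction term in a fit of all 36 libraries. No such term was tested for HET. From day 0 to day 3 none of the 79 members passed in edgeR, where 8.55% of all genes did, with 5 at an unadjusted p under 0.05. The median was -0.65, DESeq2 and limma on log2(TPM + 1) called none, and 5 were called without KO day 3 replicate 4. The share of all genes called without that library is not reported here.

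From day 3 to day 7, 2 members changed more steeply downward in KO than in WT, where 10.9% of all genes did, and the median was -0.55. They were RPS27L (-1.87, SE 0.59, adjusted p = 0.0225) and RPS6 (-0.87, SE 0.30, adjusted p = 0.0359). RPS27L in KO had stood at 62, 51.9, 99.1 and 115 CPM at day 3, close to WT, before the 10.7 to 15.1 CPM of day 7. Neither call is firm to single libraries: RPS27L was not called without WT day 7 replicate 1 (-1.36, adjusted p = 0.0961), WT day 3 replicate 1 (-1.75, adjusted p = 0.0524) or 2 (-1.68, adjusted p = 0.061), or KO day 3 replicate 4 (-1.61, adjusted p = 0.0568). RPS6 lost its call on leaving out any of 9 libraries (WT day 3 replicates 1, 2 and 3, KO day 3 replicates 3 and 4, WT day 7 replicate 3, and KO day 7 replicates 1, 3 and 4), with adjusted p of 0.0567 to 0.123. The count for the family was 0 without WT day 3 replicate 1 or 2 or KO day 3 replicate 4, 4 without KO day 3 replicate 2, and 1 without WT day 3 replicate 3, KO day 3 replicate 3, WT day 7 replicate 1 or 3, or KO day 7 replicate 1, 3 or 4.

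**Figure D5:**
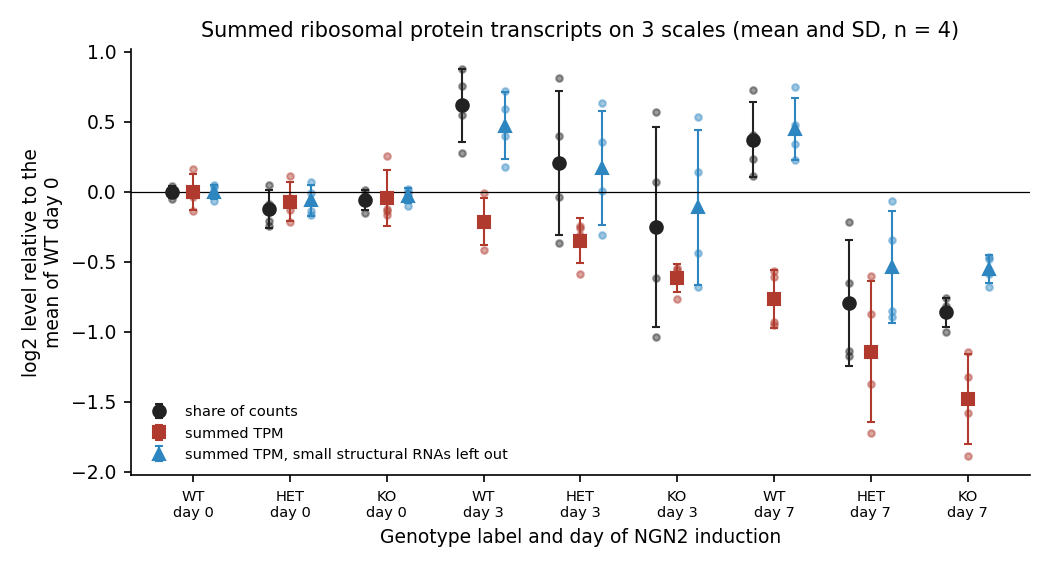
Summed level of the 81 genes per library (small points) as log2 relative to the WT day 0 mean (vertical axis), on 3 scales, with the mean and SD (n = 4) for each genotype label and day. WT day 3 lies above day 0 as a share of counts and in TPM without the small structural RNAs but below it in summed TPM, and at day 7 the KO mean lies below the WT mean on each of the 3 scales.

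The summed level on the TPM scales puts these differences side by side. Summed TPM of the family in WT was 56783 ± 5029 (day 0), 49113 ± 5709 (day 3) and 33582 ± 4745 (day 7; SD, n = 4). Without the small structural RNAs the sums were 133312 ± 4654, 186816 ± 29959 and 183598 ± 29389. The KO sums at day 7 were 20649 ± 4449 and 91002 ± 6239, below WT on each scale, and those of HET were 26831 ± 9035 and 94438 ± 26574. The log2 difference between KO and WT at day 7 was -0.70 in summed TPM, -1.01 without the small structural RNAs and -1.25 in counts.

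The copies that the family holds in pairs are set side by side here, and the differences between partners were not tested. RPS27 and RPS27L both rose in WT to day 3 and fell in KO by day 7, but in WT from day 3 to day 7 RPS27 differed by -0.12 (adjusted p = 0.752) and RPS27L by -0.82 (adjusted p = 0.0549). RPL39 and RPL39L rose by 1.69 and 1.18 to day 3, and then RPL39L fell by 0.77, a call lost without WT day 3 replicate 3, while RPL39 differed by -0.14 (adjusted p = 0.645). RPL39L stood at 7.08, 6.34, 6.72 and 10 CPM in KO at day 7 against 22.7, 12.9, 19.7 and 13 CPM in WT. It is close to identical to RPL39 in its protein. Reads shared between the copies could make both uncertain, which was not tested.

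Members with and without the start-site run had close medians. At day 7 in KO the median was -1.28 over the 46 tested members with the run and -1.22 over the 17 without it, and in HET it was -1.17 and -1.15. Of those with the run 42 fell in KO, and of those without it 13. RPS27L and RPS26, the ends of the KO order, both lack it at their RefSeq starts, but so do RPL9 (-1.30), RPL3 (-1.26) and RPS4X (-1.07) between them. A link between the run and these values was not tested.

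Genes that work with ribosomal proteins were described from lists chosen with earlier results known, and their counts in KO at day 7 stand beside 15.6% of all genes tested that fell and 17% that rose. RACK1, a scaffold on the small subunit whose symbol lies outside the pattern, fell by 0.99 in KO at day 7 (SE 0.19, adjusted p = 0.00209 in edgeR). Of 34 translation factors 14 fell and 1 rose, with a median of -0.35, led by EIF3E (-1.47), a subunit of an initiation factor, TPT1 (-1.23), a growth-related protein, and EEF1A1 (-1.06), the factor that delivers tRNA, all known TOP mRNAs. Of 15 hosts of small nucleolar RNAs 9 fell and none rose, with a median of -1.05, among them GAS5 (-1.49), a known TOP transcript, SNHG8 (-1.39) and SNHG5 (-1.38).

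Counts for the other lists in KO at day 7 were as follows. Of 78 mitochondrial ribosomal protein genes 2 rose, MRPL35 (0.62) and MRPS9 (0.46), none fell, and the median was -0.20. Of 37 ribosome biogenesis factors 6 fell and 1 rose, with a median of -0.08, and FBL, the methyltransferase of ribosomal RNA, fell by 1.39 while UTP14A, a factor of small-subunit processing, rose by 0.95. In WT 33 of these 37 fell and 1 rose from day 0 to day 3 (median -1.51), against 28.7% and 31.2% of all genes tested. Over the same step 55 of 79 ribosomal protein genes rose in counts and 33 fell in TPM. Of 14 genes of RNA polymerase I, which transcribes ribosomal RNA, UBTF rose by 1.08, POLR1G by 0.69 and POLR1E fell by 0.54. Of 15 regulators of these genes 3 rose and none fell, with a median of 0.23. They were the transcription factor MYC (1.79, adjusted p = 0.00105), at 17.6 ± 4.07 CPM in KO and 5.11 ± 2.29 in WT (SD, n = 4 each), its relative MYCN (0.56, adjusted p = 0.026) and LARP1 (0.56, adjusted p = 0.0242).

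In KO at day 3 the lists stand beside 8.93% of all genes tested that fell and 12.6% that rose. Of the 78 mitochondrial ribosomal protein genes 10 fell and none rose (median -0.42), led by MRPS6 and MRPL17 (-1.10 each) and MRPL11 (-0.96). Among biogenesis factors FBL (-0.92) and NOP56 (-0.69) fell and UTP14A (1.15) rose. RPL22L1, a copy of RPL22, fell by 1.76 from 34.3 ± 8.92 to 9.8 ± 3.63 CPM (SD, n = 4; adjusted p = 0.00272), POLR1A fell by 1.59, and EEF1A2, the elongation factor of mature neurons, rose by 1.60.

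Markers of cell state moved with the same comparisons, and their counts stand beside the shares of all genes given above for KO on each day. At day 7 all 8 proliferation markers were lower in KO (median -2.70), their summed level being 24.3 to 28.1 CPM in KO, 23.8 to 34.9 in HET and 45.5 to 265 in WT, against 1960 to 2744 CPM at day 0, and none was at 0. Of 12 neuronal markers 8 were higher in KO, including MAP2 (2.06), INA (1.84) and NEFM (1.78), and the sum was 18221 to 23491 CPM in KO and 6796 to 13575 in WT. At day 3 already 11 of 12 were higher in KO (median 2.78) and 4 of 8 proliferation markers were lower. Of 6 progenitor markers 2 were lower in KO at day 7, PAX6 (-3.75) and SOX1 (-2.66), and their sum was 426 to 490 CPM in KO and 723 to 816 in WT. Of 10 pluripotency markers 6 were tested at day 7, and of these 3 were higher and 2 lower in KO. LIN28A was at 230 ± 31.7 CPM in KO against 22 ± 7.1 CPM in WT. The list summed to 624 to 699 CPM in KO and 297 to 455 CPM in WT, where TDGF1 was at 0. Mesenchymal markers summed to 54.1 to 82.7 CPM in KO and 37.2 to 50.9 in WT, where DCN was at 0. Of the 3 tested, THY1 (2.43, at 65 CPM in KO and 12 in WT) was higher and COL1A1 (-5.74) and COL1A2 (-2.91) were lower in KO. The astrocyte and endoderm lists were at most 7.09 CPM at day 7. The part of cell state in the ribosomal protein differences was not tested.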

How the data were processed

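Per the submitters' processing notes, tools were cutadapt 4.8, FastQC 0.11.8, MultiQC 1.20, STAR 2.7.8a and RSEM 1.3.3 with GRCh38; annotation and use of strand are not given in the sources used here. The authors deposited expected counts (whole in every cell, so rounding changed nothing) and TPM per gene; 4 reporter sequences were left out. Genotypes were compared within a day on 12 libraries, the WT course on 12 and interactions on 36, with edgeR 4.0.16 (R 4.3.3): TMM, filterByExpr, quasi-likelihood F test, Benjamini-Hochberg over all genes, threshold 0.05. CPM values use library totals (23.9 M to 56.7 M counts). Alternatives used DESeq2 1.42.0 and limma 3.58.1 on log2(TPM + 1) or + 0.1, and scripts were tested on simulated data. Members, lists and settings were chosen with earlier results of these data known. Named were paralogs and fixed members, the 3 largest rises and falls per comparison (CPM of at least 5), the 3 highest and lowest in TPM, and up to 3 genes per list; some list genes are not reported here. Deviations of same-numbered libraries from their group means correlated over 0.1 in each of the 4 pairs in 2 comparisons: KO and WT of day 0 (0.186 to 0.428), and the HET and WT libraries of day 3 (0.127 to 0.668). This pairing is seen in the data and not stated in the labels. Figures used matplotlib 3.10.9.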

Additional observations from a re-analysis of the deposited data

Results flagged for a closer look

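Among 20 values in 9 groups of 4 libraries (180 groups in all), 7 had 1 library far from the other 3, where chance gives about 1 in 20, or 9. RPS27L was high in replicate 2 of HET day 0 (59.3 CPM against 22.2 to 23.8) and of KO day 0 (55 against 21.5 to 24.4), and in replicate 1 of WT day 7 (102 against 33.5 to 41). RPL3 was high in HET day 7 replicate 1 (979 CPM against 644 to 678) and low in KO day 7 replicate 4 (559 against 718 to 741). RPL31 was high in WT day 0 replicate 4 (212 CPM against 179 to 183), and RPS3 in HET day 3 replicate 4 (1331 against 506 to 642).

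The change from day 3 to day 7 differed between KO and WT for 2 members by the interaction term, RPS27L and RPS6, both with the lower value in KO, where 10.9% of all genes tested were called in that direction. The calls were lost on leaving out any of 4 single libraries for RPS27L and any of 9 for RPS6.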

How the results depend on the processing

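Across 12 other settings the 41 calls on 19 named members kept direction and side of the threshold in 412 cases, lost the call in 74 and turned in 6; without 1 replicate they kept it in 327 and lost it in 17. The 6 were RPL3 (-0.30), RPL5 (-0.18) and RPLP0 (-0.34), WT day 3 against day 0, each the same on log2(TPM + 1) and log2(TPM + 0.1). Length offsets, with and without the block, were chosen after seeing the data. The cause was not tested for any change listed here, and the share of all genes called under each setting is not reported.

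With the replicate number as a block the members called were 1 for KO and 1 for HET against WT at day 0, 70 for KO and 1 for HET at day 3; the other block fits kept their counts within 1.5 times. For KO against WT at day 3 the correlations of same-numbered libraries were 0.152, 0.387, 0.0736 and 0.473, and replicate 3 missed the bar of 0.1. Whether the numbers pair these samples is not settled. Length offsets with the block gave 36 for KO day 3, 1 for HET day 0 (higher), 3 for HET day 3, 30 for WT day 3 against day 0, 11 for WT day 7 against day 3 and 4 for the interaction of days 3 to 7; without the block they gave 34, 13 and 4 for the last 3.

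On log2(TPM + 1) and log2(TPM + 0.1) the counts were 1 and 2 for KO day 7, 0 and 0 for HET day 7, 39 and 39 (6 up, 33 down) for WT day 3 against day 0, 40 and 41 for WT day 7 against day 3, and 1 and 1 for the interaction of days 3 to 7; the second gave 1 for KO day 3. These scalings move the all-gene median by over 0.1, for example to 0.18 and 0.37 in KO day 7. With TPM rescaled without the small structural RNAs the counts were 2 for KO day 3, 37 and 11 for the WT steps and 7 for that interaction. Their share as a covariate gave 34 for KO day 3, 5 and 2 for KO against HET on days 3 and 7, 25 and 53 for the WT steps, and 10 and 5 for the interactions of days 0 to 3 and 3 to 7. Library size alone gave 3 for KO day 3, 1 for HET day 0 and 18 for WT day 7 against day 3; DESeq2 gave 2 for KO day 3 and 1 for HET day 0, and its size factors in edgeR 1 for the later interaction.

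In summed TPM the log2 difference was -0.70 for KO and -0.32 for HET against WT at day 7, -0.21 for WT day 3 against day 0 (turned) and -0.55 for WT day 7 against day 3, and -1.01 for KO day 7 with TPM rescaled.

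Without 1 replicate the counts ranged from 0 to 33 for KO day 3, 55 to 67 for KO day 7, 0 to 4 for HET day 0, 34 to 79 for HET day 7, 47 to 60 for WT day 3 against day 0, 6 to 20 for WT day 7 against day 3, and 0 to 5 and 0 to 4 for the interactions of days 0 to 3 and 3 to 7. Each of the 79 tested members was above 3 counts in every library, and RPL3L and RPL10L were too low to test; the effect of depth on the calls was not tested.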
